A study of Mus musculus with 27 samples.

Results

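The 50 genes described here encode Cap1, which recycles actin monomers, and the proteins that nucleate, cap, anchor and use the actin, tubulin and neurofilament polymers of neurons. Members were found on the array by gene symbol, as every probe set whose platform annotation names 1 gene that is a listed member, after old symbols had been updated. Of the 12488 probe sets of the array, 67 belonged to 44 of the 50 genes, among 8252 genes named on the array. Twf1, Arpc1b, Arpc3, Actr2, Tuba1b and Map1a had no probe set of their own, and 4 probe sets that name a member beside other genes were not used. Of the 67 sets, 6 are array control sets of Actb, 5 were too dim to test and 56 were tested. All 44 genes kept a tested set. Low values were filtered on the mean log2 intensity over both strains.

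Actin filaments add monomers at one end and lose them at the other, and cofilins sever the filaments. CAP proteins work with cofilin to take monomers off old filaments and to recharge them with ATP, so that growth cones and dendritic spines can keep remodelling. Axons also hold long microtubules of alpha- and beta-tubulin, along which kinesins carry cargo, and neurofilaments, which fill the axon and set its calibre.

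RNA was taken from the whole brain of untreated mice of 2 inbred strains and hybridised to oligonucleotide arrays, 1 array for each animal. The C57 group had 5 animals, which the labels write as males of C57BL/2. The DBA group had 4 animals of DBA/2J, whose sex the labels leave out, so that a strain effect and a sex effect cannot be told apart where both could act. Strains were taken from the sample titles, since the description of every sample, DBA ones included, gives it the alias C57 1. If a title were wrong, every difference below would be affected. All animals were 10 weeks old, the labels call them naive and name no transgene, and 5 µg of total RNA was labelled for each array. The question is which brain RNA levels set these strains apart. Another platform with 18 arrays (10 C57 and 8 DBA) was not analysed here.

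Median intensity of the 9 arrays ran from 160.5 to 198.4. Animals 1 and 3 of C57 and animal 4 of DBA had the 3 highest medians and lay together on the first principal component of the deviations from the strain means, which held 31.5% of that variance. Animal 3 of DBA lay alone on the second component, with 18% of it. The number of arrays limits the precision of every value below. The p-values of strain differences weigh them only against the spread within strains, in which animal and array cannot be told apart. Differences are given on the log2 scale as DBA minus C57 ± SE, from a limma fit over 9316 probe sets with p-values adjusted over all of them, and a set is called where its adjusted p is under 0.05. Over the whole array 233 of 9316 sets were called (2.50%), 83 of them higher in DBA (0.891%) and 150 lower (1.61%). Brain cell markers were present as the tissue label requires. The summed intensity of 5 neuronal markers ran from 30900 to 34860 in C57 and from 30830 to 36540 in DBA, and that of 5 oligodendrocyte markers from 19700 to 26560 and from 19500 to 23400. Counting the brightest set of each gene, limma called 0 of 5 neuronal, 0 of 5 astrocyte and 0 of 5 oligodendrocyte markers, and 4 of the 5 oligodendrocyte markers had a difference below 0. Over all 10 oligodendrocyte sets 1 was called, 1 of the 4 sets of Mobp (-0.84, adjusted p = 0.00416), which is not the brightest of its gene. The brightest sets of Mag and Mog were at -0.57 and -0.62, without a call. Of 7 microglial markers 2 were called lower in DBA, and the summed level of all 7 ran from 5897 to 7153 in C57 and from 5938 to 6327 in DBA. The summed level of 3 markers of immature neurons did not overlap, at 7496 to 9047 in C57 and 6372 to 7470 in DBA, but most of it is Tubb3, a member described below, and none of the 3 was called by limma. That of 3 choroid plexus markers ran from 1109 to 3515 and from 3443 to 4608, with all 3 genes higher in DBA on average and 0 called. What part the makeup of cells had in the results below was not tested, and in whole tissue fewer cells of a type and less RNA in each cell cannot be told apart.

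Of the 56 tested member sets, 2 were called (3.57%, against 2.50% of all sets), namely Cap1, which was higher in DBA, and 1 of 2 sets of Myl4, which was lower. An unadjusted p under 0.05 was found for 7 member sets (12.5%, against 12.2% of all sets). The animals of the strains did not overlap in 4 member sets (7.14%, against 6.45%). These shares lay close to those of the whole array, and nothing is read from them about the members as a group. Cap1 had been listed with earlier results of these data known, so its part in these counts is a description. The median difference of the members was -0.027, beside 0.0091 for all tested sets, and the median absolute difference 0.121 beside 0.146. A difference below 0 was found in 33 member sets (58.9%, against 48.3% of all sets). In 39 member sets (69.6%, against 56.7% of all sets) the 95% interval lay within 1.5-fold either way, so that a larger difference was outside the interval. In the others, the called sets among them, the interval reached beyond 1.5-fold.

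**Figure D1:**
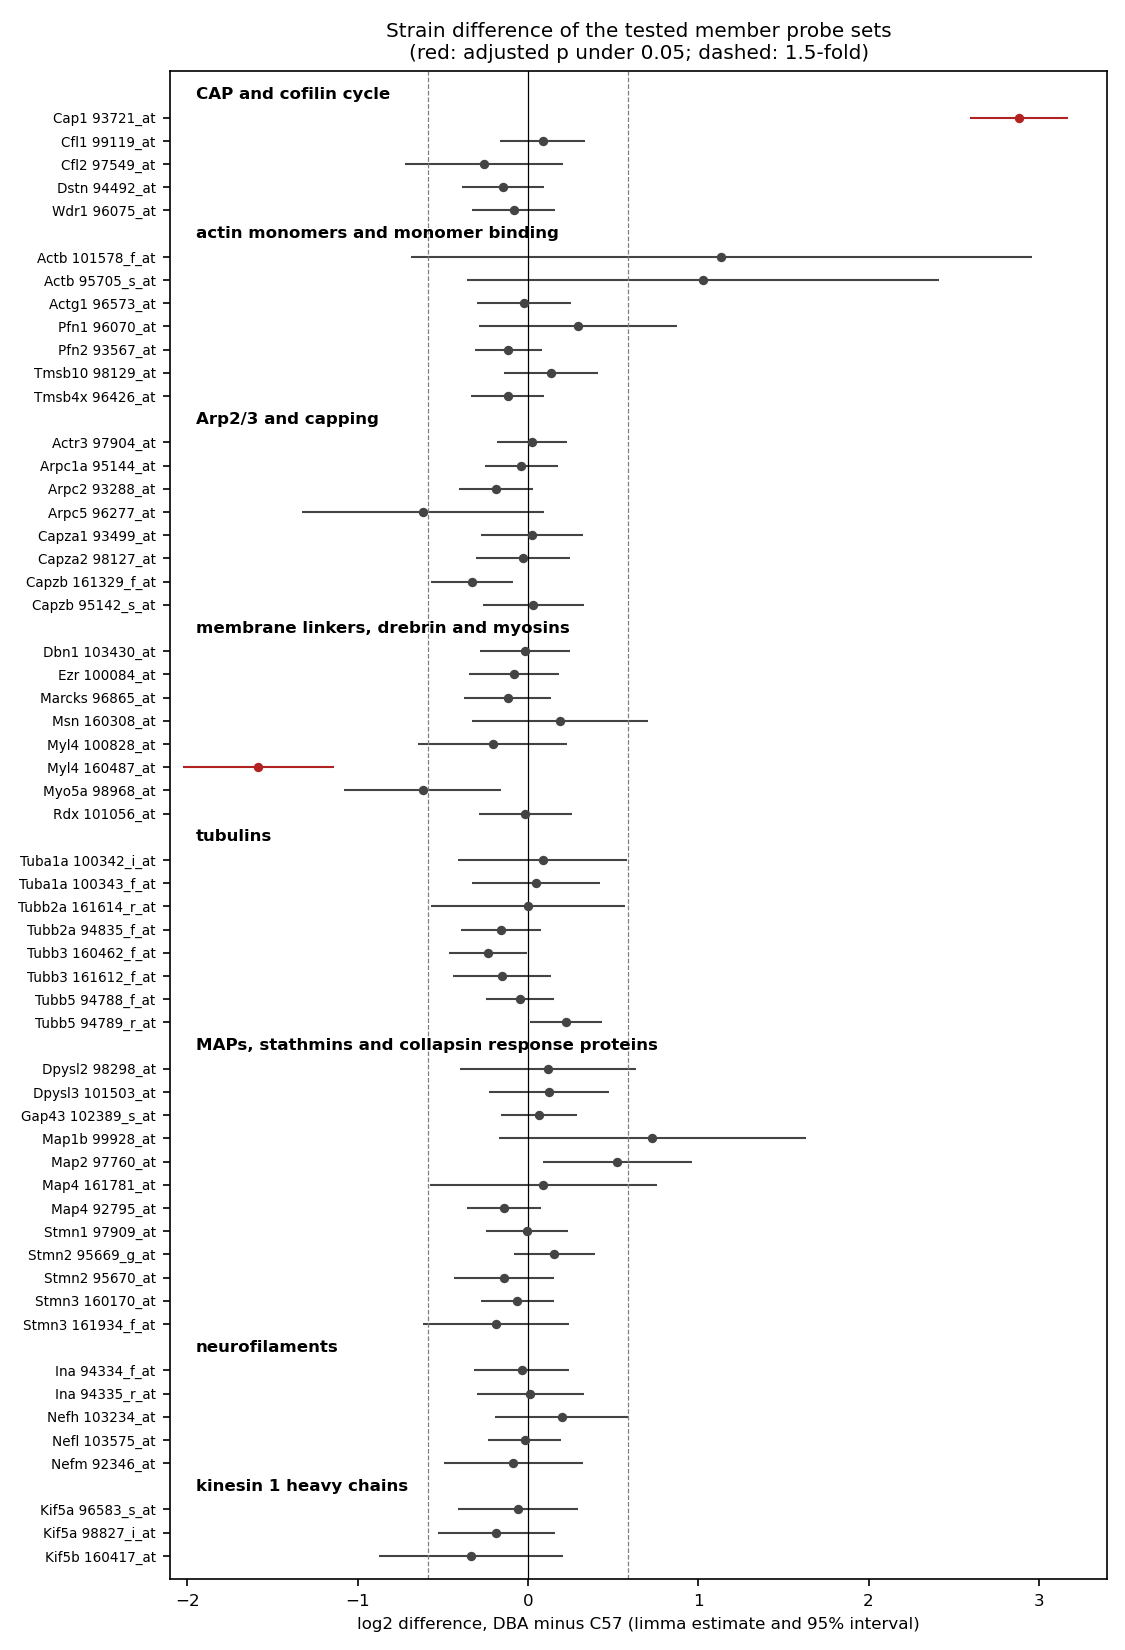
Log2 difference between the strains (DBA minus C57, x axis) for the 56 tested member probe sets, grouped by role, with the limma estimate as a point and the 95% interval as a bar; red marks an adjusted p under 0.05 and dashed lines mark 1.5-fold. Cap1 (2.89) and Myl4 160487_at (-1.58) lie outside the dashed lines with their whole interval, and 39 intervals lie between them.

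Cap1 is represented by 1 probe set, 93721_at, and lies on chromosome 4. There is no second set to compare it with and no probe sequence was used. Whether RNA of the strains binds its probes alike was therefore not tested. Its intensity was 117.0, 149.3, 136.0, 123.0 and 114.2 in C57 animals 1 to 5 and 1046.6, 952.2, 1016.8 and 773.0 in DBA animals 1 to 4. Every DBA animal was more than 5 times as bright as the brightest C57 animal, and DBA animal 4 was the lowest of its strain. The mean was 128 ± 15 (SD, n = 5) in C57 and 947 ± 123 (SD, n = 4) in DBA, a ratio of geometric means of 7.39 (95% interval 6.06 to 9.02). The log2 difference was 2.89 ± 0.13 (adjusted p = 4.78e-06). Leaving out each animal in turn gave 2.83 to 2.98, and the 6 animals outside the trio on the first component gave 2.97 (adjusted p = 0.000763). The call held under every alternative tried. Since Cap1 was listed with earlier results of these data known, these values describe it and are no independent test.

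The stretch of 250 bases before the start of Cap1 is shown beside those of Myl4, the other gene with a called set, and of Actg1, the member whose window holds a CArG box, the binding motif of serum response factor that is known from actin genes. The sequences are RefSeq promoter windows of build GRCm38.p6, written 5′ to 3′ on the strand of the gene. Capitals mark CArG boxes (CC, 6 bases of A or T, GG) and the GC-box core GGGCGG on either strand, where overlapping matches merge.
Cap1 (chr4:122886077-122886326, minus strand): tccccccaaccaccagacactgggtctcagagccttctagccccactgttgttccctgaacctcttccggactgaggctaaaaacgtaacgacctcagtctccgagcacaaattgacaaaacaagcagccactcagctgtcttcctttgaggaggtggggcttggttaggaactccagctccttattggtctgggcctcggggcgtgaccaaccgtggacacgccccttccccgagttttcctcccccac
Myl4 (chr11:104550413-104550662, plus strand): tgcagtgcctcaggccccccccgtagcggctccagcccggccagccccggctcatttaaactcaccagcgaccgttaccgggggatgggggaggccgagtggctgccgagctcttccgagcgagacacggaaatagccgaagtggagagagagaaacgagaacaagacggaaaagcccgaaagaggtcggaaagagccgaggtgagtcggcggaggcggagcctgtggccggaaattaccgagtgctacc
Actg1 (chr11:120348496-120348745, minus strand): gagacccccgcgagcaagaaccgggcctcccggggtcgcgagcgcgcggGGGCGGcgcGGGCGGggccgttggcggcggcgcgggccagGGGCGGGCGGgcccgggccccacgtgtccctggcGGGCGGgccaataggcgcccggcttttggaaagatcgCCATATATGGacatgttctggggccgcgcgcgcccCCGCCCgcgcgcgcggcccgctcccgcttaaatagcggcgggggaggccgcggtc
Neither motif occurred in the stretches of Cap1 and Myl4, with a GC content of 57.2% and 63.6%. The stretch of Actg1 held a CArG box beginning 90 bases before the start and 6 GGGCGG matches, with a GC content of 79.2%. A RefSeq window was found for 38 of the 50 members (42 windows of 300 bases, from 250 before to 50 after the start). GGGCGG occurred in 36 of these windows (85.7%), beside 35.7% of all 32851 windows and 46.2% of those of protein-coding genes. The median GC content of the member windows was 68.0%, beside 52.4% for all windows and 55.6% for protein-coding genes. The CArG box occurred in 1 member window (2.38%), beside 1.63% of all windows and 1.52% of protein-coding ones. The arrays measured RNA, not binding, and these matches describe the letters only.

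The partners of Cap1 in filament turnover did not pass the test. Cfl1 encodes the main cofilin of brain, Cfl2 the muscle form, Dstn the related depolymerising factor, and Wdr1 a cofactor that speeds severing. The Cfl1 set (99119_at) ran from 6537.9 to 7416.1 in C57 and from 6435.5 to 8577.2 in DBA (difference 0.09 ± 0.11). Dstn (94492_at) ran from 4201.9 to 5369.7 and from 4056.2 to 4668.6 (-0.15 ± 0.11), and Wdr1 (96075_at) from 1570.8 to 2058.3 and from 1586.3 to 1901.2 (-0.08 ± 0.11). The strains overlapped in all 3 sets, and their 95% intervals lay within 1.5-fold. Cfl2 (97549_at) ran from 549.2 to 776.1 in C57 and from 393.3 to 798.3 in DBA (-0.26 ± 0.21), with C57 animals 1 and 3 and DBA animal 4 the highest of their strains. Another Cfl2 set (162088_r_at) was too dim to test.

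Monomer pools and the proteins that hold them are covered by Actb and Actg1, the cytoplasmic actins, by Pfn1 and Pfn2, the profilins that load monomers onto growing ends, and by the thymosins Tmsb4x and Tmsb10, which keep monomers in reserve. Of their 7 tested sets limma called 0, and 0 had an unadjusted p under 0.05 (2.50% and 12.2% of all sets). Actg1 (96573_at) ran from 12738.5 to 14666.3 in C57 and from 11282.1 to 16475.2 in DBA, a difference of -0.02 ± 0.12. Pfn2 (93567_at), the profilin enriched in brain, ran from 6445.5 to 7277.6 and from 6104.4 to 6775.3 (-0.12 ± 0.09) and had the smallest spread within strains of any member set, a log2 SD of 0.066. Tmsb4x (96426_at) ran from 5958.3 to 6729.4 and from 5357.2 to 6337.4 (-0.12 ± 0.10). Tmsb10 (98129_at) ran from 4461.4 to 6096.6 and from 5233.3 to 6447.8 (0.14 ± 0.12). These 4 sets overlapped between the strains, with intervals inside 1.5-fold. Pfn1 (96070_at) varied more, with 332.4 in C57 animal 1, 114.7 in C57 animal 3 and 194.3 to 222.5 in the other 3, against 219.8 to 296.2 in DBA (0.29 ± 0.26).

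Actb was read by probe sets that did not behave alike. In C57 the tested sets 95705_s_at and 101578_f_at averaged 187 and 84.8, beside 68.7 to 125 in the antisense control sets of Actb. The sense control sets described below averaged 8802 to 14193 in C57. Whether the tested sets follow the level of Actb RNA was not tested. The tested set 95705_s_at gave 152.3, 263.2, 235.9, 142.5 and 141.7 in C57 and 137.0, 275.7, 1743.9 and 278.0 in DBA (1.03 ± 0.62, adjusted p = 0.583). The tested set 101578_f_at gave 46.1 to 136.2 in C57 and 42.6, 87.9, 1154.2 and 203.6 in DBA (1.14 ± 0.82). In both, DBA animal 3 stood far above the other 8 animals, and without it the difference of 95705_s_at was 0.28. The same animal was the highest in the 3 control sets for 18S ribosomal RNA, with 7465.7, 1637.1 and 1134.7 against at most 1209.7, 254.1 and 261.5 in any other animal. It was also the highest in the antisense control sets of Actb (274.9, 313.3 and 192.4) and of Gapdh (466.5, 785.6 and 546.7), where no other animal passed 182.6. Its part in these Actb values was not tested. Map1b, described further on, had its highest value in this animal too.

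The 3 sense control sets of Actb, which read the 3′ end, the middle and the 5′ end of the transcript, were left out of the fit and tested singly. At the 3′ end intensity was 14193 ± 1008 (SD, n = 5) in C57 and 12027 ± 1073 (SD, n = 4) in DBA, with the values 12942.0, 13986.3, 14578.3, 15658.8 and 13797.7 against 11395.5, 12713.0, 13136.2 and 10861.9. Only DBA animal 3 passed the lowest C57 animal there. The log2 difference was -0.24 (exact 2-sided permutation test over 126 splits, p = 0.0238, adjusted over the 3 sets 0.0714). In the middle the means were 9386 ± 751 and 7529 ± 1222 (-0.33, exact permutation p = 0.0476, adjusted 0.0714), and at the 5′ end 8802 ± 656 and 8154 ± 957 (-0.11, exact permutation p = 0.286). None passed after adjustment. The 3′ signal over the 5′ signal, a measure that rises as RNA breaks down, was on the log2 scale 0.69 ± 0.15 in C57 and 0.56 ± 0.06 in DBA (exact permutation p = 0.159).

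**Figure D2:**
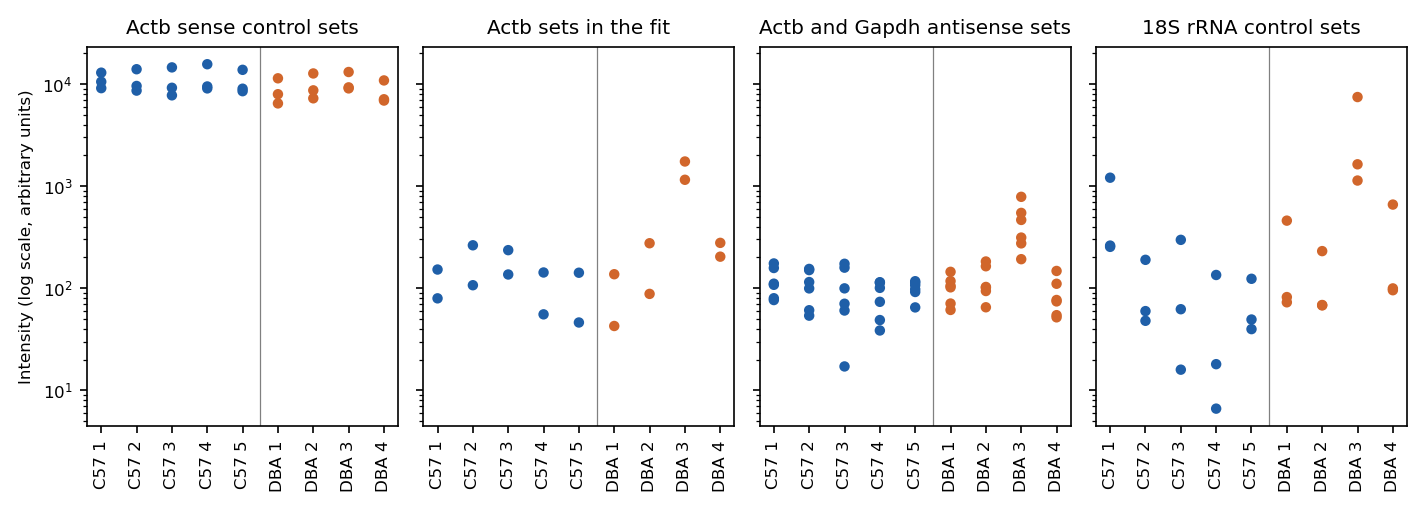
Intensity (log y axis) in each of the 9 animals (x axis, blue C57 and orange DBA) for the 3 Actb sense control sets, the 2 Actb sets in the fit, the 6 Actb and Gapdh antisense sets and the 3 control sets for 18S ribosomal RNA, 1 point for each set. DBA animal 3 is the highest animal in the 3 right-hand panels, up to 7465.7 for 18S ribosomal RNA, but not in the left one.

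Branching and capping of filaments are the work of the Arp2/3 complex, with subunits Actr3, Arpc1a, Arpc2 and Arpc5 measured here, and of the capping protein made of an alpha chain (Capza1, Capza2) and the beta chain Capzb. Among 8 tested sets 0 were called by limma, and 1 had an unadjusted p under 0.05 (2.50% and 12.2% of all sets). That set was Capzb 161329_f_at, with 1549.2, 1528.9, 1551.0, 1619.1 and 1504.4 in C57 and 1225.4, 1348.4, 1033.7 and 1362.0 in DBA. The strains did not overlap, and DBA animal 3 was the lowest. The suffix _f leaves this set uncertain as to gene, as with the tubulins below. The difference was -0.33 ± 0.11 (adjusted p = 0.202). A second set of the same gene, 95142_s_at, gave 3455.5, 3635.7, 3545.0, 4427.3 and 4841.8 in C57 and 4346.9, 4101.0, 4185.1 and 3537.6 in DBA. There the strains overlapped throughout (0.03 ± 0.13), and the sign of this small value turned when single animals were left out. A further set, 95141_at, was too dim to test.

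Actr3 (97904_at, 4307.3 to 4783.4 in C57 and 4241.9 to 4917.8 in DBA), Arpc1a (95144_at, 1515.7 to 1682.1 and 1406.8 to 1692.5), Capza1 (93499_at, 1085.0 to 1259.6 and 919.4 to 1382.3) and Capza2 (98127_at, 1965.6 to 2736.4 and 2248.4 to 2656.3) overlapped between the strains, with differences of -0.04 to 0.02. Arpc2 (93288_at) gave 3096.3 to 3886.4 in C57 and a tight 3117.5 to 3203.8 in DBA (-0.19 ± 0.10). C57 animal 3 fell below every DBA animal, so these ranges overlapped. Arpc5 (96277_at) was highest in the animals in which Cfl2 was high. C57 animals 1 and 3 had 734.9 and 761.3 and DBA animal 4 had 648.6, against 373.3 to 483.0 in the other C57 and 238.5 to 372.8 in the other DBA animals. The plain difference was -0.62 ± 0.32. With the trio as a term in the fit it was -0.48 ± 0.16 (adjusted p = 0.198), a test chosen after the values were seen.

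Membrane linkers and myosins tie actin to the cell surface and to cargo. Ezrin, radixin and moesin (Ezr, Rdx, Msn) link filaments to membrane proteins, Marcks binds actin and membrane under the control of protein kinase C, and drebrin (Dbn1) stabilises actin in dendritic spines. Myo5a encodes the myosin V motor that carries vesicles along actin, and a mutation of it gives the dilute coat of DBA mice. Myl4 encodes an essential myosin light chain best known from atrial heart muscle and embryonic muscle. Of their 8 tested sets limma called 1, a set of Myl4, and 2 had an unadjusted p under 0.05 (2.50% and 12.2% of all sets).

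Myl4 lies on chromosome 11 and has 2 probe sets that disagree. Set 160487_at gave 297.7, 364.2, 248.9, 325.9 and 403.7 in C57 and 73.3, 117.9, 122.1 and 129.5 in DBA. The strains did not overlap, and DBA animal 1 stood below the other 3. The means were 328 ± 60 (SD, n = 5) and 111 ± 25 (SD, n = 4), and the difference was -1.58 ± 0.20 (adjusted p = 0.00186), a ratio of geometric means of 2.99. Without DBA animal 1 it was -1.39 (adjusted p = 0.00279). Set 100828_at gave 386.7, 278.8, 392.1, 227.5 and 270.3 in C57 and 204.3, 290.0, 262.2 and 309.4 in DBA. Here the strains overlapped (-0.21 ± 0.19, adjusted p = 0.768), and C57 animals 1 and 3 and DBA animal 4 were again the highest of their strains. If only the brighter set of each gene is kept, this second set stands for Myl4 and the call is lost. Of 5 tested muscle markers limma called 0, 3 had a higher mean log2 level in DBA, and their summed level ran from 606 to 873 in C57 and from 752 to 879 in DBA. Myh6, the heavy chain of atrial muscle, had mean intensities of 11.1 and 29.1 and was too dim to test.

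Myo5a (98968_at, chromosome 9) gave 530.7, 513.2, 492.1, 339.5 and 415.2 in C57 and 389.3, 256.4, 212.5 and 354.6 in DBA. C57 animal 4 lay below DBA animals 1 and 4, so the strains overlapped, and the other 4 C57 animals were above every DBA animal. The difference of -0.62 ± 0.21 did not pass (adjusted p = 0.217), and leaving out single animals gave -0.75 to -0.46. Its other set, 100672_at, stayed between 0.7 and 7.6 and was too dim to test.

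**Figure D3:**
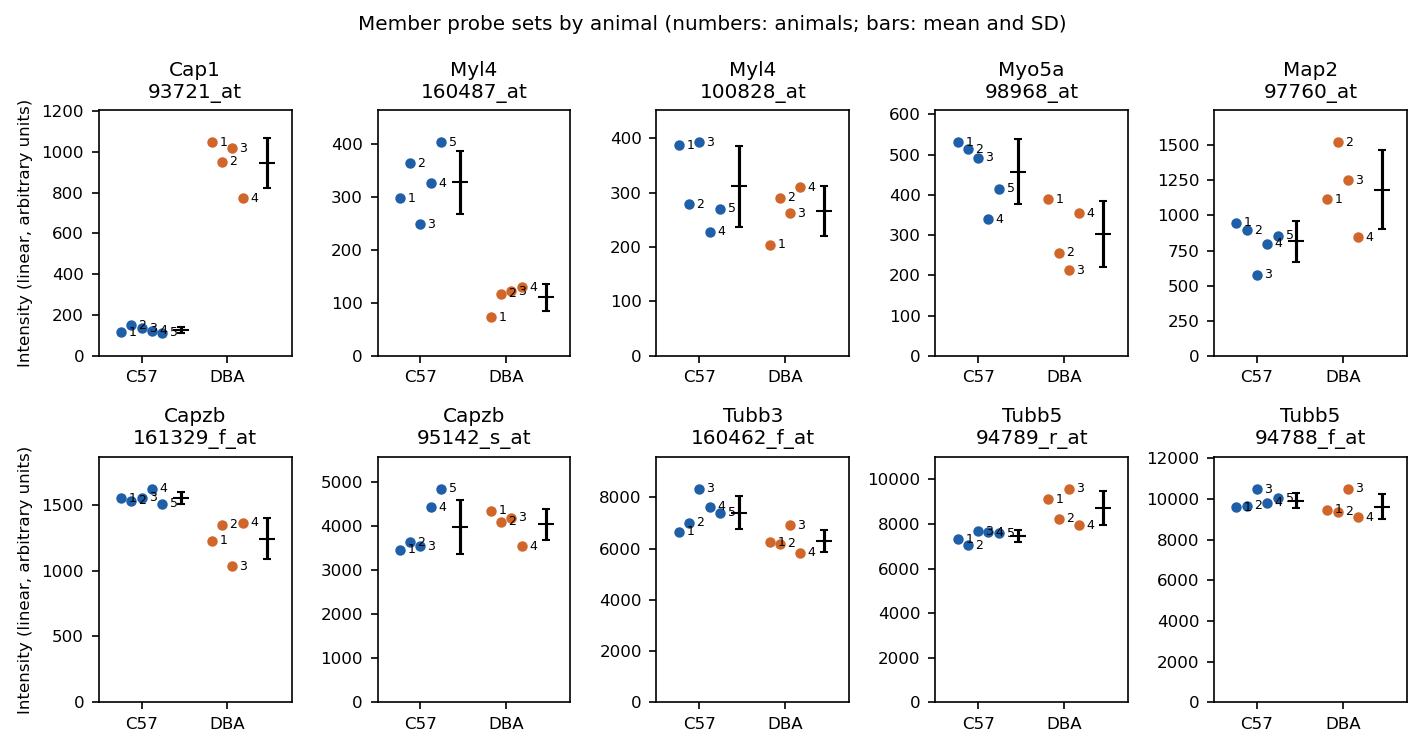
Intensity on a linear scale (y axis, from 0) of 10 member probe sets in each animal (points numbered by animal, blue C57 and orange DBA), with the mean and SD of each strain as a bar. The strains are apart in Cap1, Myl4 160487_at, Capzb 161329_f_at and Tubb5 94789_r_at and overlap in the other 6 panels, among them the second set of Myl4, Capzb and Tubb5.

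Among the other membrane linkers, Ezr (100084_at) ran from 438.9 to 526.6 in C57 and from 394.8 to 533.0 in DBA (-0.08 ± 0.12). Rdx (101056_at) ran from 679.0 to 922.5 and from 744.8 to 930.1 (-0.01 ± 0.12), and Dbn1 (103430_at) from 210.4 to 290.5 and from 217.8 to 251.1 (-0.02 ± 0.12). Marcks (96865_at) gave 2223.6, 2144.9, 2189.1, 2274.9 and 2653.1 in C57 and 2501.5, 2026.1, 2030.4 and 1927.7 in DBA (-0.12 ± 0.11). One animal of each strain was high, and the strains overlapped. Msn (160308_at) had 429.2 and 364.8 in C57 animals 1 and 3 and 453.2 in DBA animal 4, against 229.8 to 243.6 and 269.4 to 315.4 in the others. Its difference was 0.19 ± 0.23, and 0.29 ± 0.09 (adjusted p = 0.187) with the trio as a term.

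The tubulins measured were 4. Tuba1a encodes an alpha-tubulin of growing neurons, Tubb3 the neuronal beta-tubulin, and Tubb2a and Tubb5 further beta-tubulins of brain. Their transcripts are close in sequence, and these sets carry the suffixes _f, _i or _r, which the array maker gives to sets made for a gene family or under relaxed design rules, so their levels are uncertain as to gene. Limma called 0 of 8 sets, 2 had an unadjusted p under 0.05, and all 8 intervals lay within 1.5-fold. Over all tested sets these shares were 2.50%, 12.2% and 56.7%, and nothing is read from so few sets about tubulins as a group. Tubb3 160462_f_at gave 6650.6, 7002.0, 8329.5, 7637.6 and 7391.5 in C57 and 6239.2, 6186.4, 6906.6 and 5846.0 in DBA. DBA animal 3 passed the lowest C57 animal and the other 3 were below all C57 animals (-0.23 ± 0.10, adjusted p = 0.405). The second Tubb3 set, 161612_f_at, ran from 1536.8 to 1819.0 and from 1218.5 to 1791.5 (-0.15 ± 0.13). For Tubb5, set 94789_r_at gave 7313.3, 7042.1, 7665.0, 7634.2 and 7591.7 in C57 and 9101.9, 8241.8, 9576.3 and 7946.9 in DBA. All DBA animals were above all C57 animals (0.22 ± 0.09, adjusted p = 0.375), while the second set, 94788_f_at, overlapped with 9590.7 to 10475.5 and 9101.0 to 10490.2 (-0.05 ± 0.09). The Tuba1a sets varied between animals of a strain, with 13560.7 to 27212.1 in C57 and 15546.9 to 24935.2 in DBA for 100342_i_at (0.09 ± 0.22) and 10333.7 to 17540.0 and 12423.4 to 16878.1 for 100343_f_at (0.04 ± 0.17). In both, C57 animals 1 and 3 and DBA animal 4 were the lowest of their strains. Tubb2a 94835_f_at ran from 9208.4 to 11437.3 and from 8680.0 to 9783.9 (-0.16 ± 0.10), and 161614_r_at from 73.7 to 166.7 and from 81.5 to 133.1 (0.0014 ± 0.25).

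Microtubules are stabilised by Map1b, Map2 and Map4, and taken apart by the stathmins (Stmn1, Stmn2, Stmn3). Grouped with them here are the collapsin response proteins Dpysl2 and Dpysl3 and the membrane-bound Gap43, all known from growth cones. Limma called 0 of 12 tested sets, and 1 had an unadjusted p under 0.05 (2.50% and 12.2% of all sets). This was Map2 (97760_at), the marker of dendrites, with 947.2, 896.0, 578.2, 796.6 and 854.5 in C57 and 1115.5, 1519.8, 1249.0 and 843.7 in DBA. The first 3 DBA animals were above every C57 animal and DBA animal 4 lay among them, so the strains overlapped. The difference was 0.53 ± 0.20 (adjusted p = 0.283), and leaving out single animals gave 0.39 to 0.68.

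Stmn1 (97909_at, 8201.5 to 10466.9 in C57 and 8676.2 to 10254.0 in DBA) and Stmn3 (160170_at, 4999.8 to 5755.9 and 4922.1 to 5752.1) had differences of -0.0068 ± 0.11 and -0.06 ± 0.10. Another Stmn3 set, 161934_f_at, ran from 314.0 to 477.3 and from 269.2 to 509.5 (-0.19 ± 0.19). The sets of Stmn2 pointed in opposite directions, at 6072.9 to 7512.2 and 6622.2 to 8012.8 for 95669_g_at (0.16 ± 0.11) and 4025.1 to 4929.5 and 3319.5 to 4973.4 for 95670_at (-0.14 ± 0.13). Neither passed, and the strains overlapped in all of these stathmin sets. One further set each of Stmn1 (97910_at) and Stmn2 (95668_at) was too dim to test. Gap43 (102389_s_at) gave 3667.5 to 4293.5 in C57 and 4745.0, 3979.0, 4013.4 and 4024.5 in DBA, with 1 high DBA animal (0.06 ± 0.10).

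Map4 read 971.4 to 1226.9 in C57 and 974.9 to 1002.8 in DBA by 92795_at (-0.14 ± 0.10), and 49.3 to 107.7 and 54.6 to 142.4 by 161781_at (0.09 ± 0.30). Map1b (99928_at) gave 58.1 to 106.1 in C57 and 74.7, 92.1, 347.6 and 115.6 in DBA. DBA animal 3, the animal that was high in the Actb and 18S sets, was the highest here too, and the difference was 0.73 ± 0.40. Dpysl2 (98298_at) ran from 172.9 to 369.9 and from 201.3 to 309.2 (0.12 ± 0.23), and Dpysl3 (101503_at) from 137.0 to 201.5 and from 140.7 to 212.5 (0.12 ± 0.16). These sets overlapped between the strains.

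Neurofilaments are built from the light, medium and heavy chains (Nefl, Nefm, Nefh) and internexin (Ina). Among 5 sets 0 were called by limma, 0 had an unadjusted p under 0.05, and 4 intervals lay within 1.5-fold (2.50%, 12.2% and 56.7% of all sets). Nefl (103575_at) gave 1575.5, 1797.1, 1526.8, 1549.6 and 1681.1 in C57 and 1592.8, 1551.3, 1530.6 and 1747.3 in DBA, a difference of -0.02 ± 0.10. Nefm (92346_at) gave 714.6, 1184.0, 866.9, 1184.8 and 1310.6 in C57 and 987.1, 890.8, 1084.6 and 920.5 in DBA (-0.08 ± 0.18). Nefh (103234_at) gave 1203.7, 1303.0, 1795.9, 1452.1 and 1140.1 in C57 and 1186.2, 1521.9, 1872.0 and 1777.4 in DBA (0.20 ± 0.18, adjusted p = 0.743). The strains overlapped in every chain, Nefl varied least and C57 animals 1 and 3 were the lowest for Nefm. Ina ran from 3282.3 to 4424.6 and from 3194.4 to 4042.0 by 94334_f_at (-0.04 ± 0.12), and from 2329.4 to 3222.1 and from 2470.9 to 3469.6 by 94335_r_at (0.01 ± 0.14).

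The 3 chains form 1 polymer, and their levels were compared across the 9 animals as deviations from the strain mean, in 3 pairs. Pearson's r between Nefl and Nefm was 0.337 (permutation of animals within strains, 2880 arrangements, p = 0.469, adjusted 0.765), with a Spearman's rho of 0.3 (permutation p = 0.506, adjusted 0.593) and r = 0.445 without the 2 animals farthest from the median of Nefl. Between Nefl and Nefh r was -0.251 (permutation p = 0.51, adjusted 0.765) and rho -0.583 (permutation p = 0.138, adjusted 0.415), and without the same 2 animals, C57 animal 2 and DBA animal 4, r was -0.79. Between Nefm and Nefh r was -0.118 (permutation p = 0.784) and rho -0.233 (permutation p = 0.593), and r was -0.284 without C57 animals 1 and 5, and positive under other choices of animals or scaling. No pair passed, and at this number of animals the value of r moved with single animals.

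Kinesin 1 heavy chains Kif5a, the neuronal form, and Kif5b, the ubiquitous form, drive transport along axons. By limma 0 of 3 sets were called, and 0 had an unadjusted p under 0.05 (2.50% and 12.2% of all sets). Kif5a ran from 1209.3 to 1841.6 in C57 and from 1193.0 to 1691.6 in DBA by 96583_s_at (-0.06 ± 0.16), and from 145.8 to 246.4 and from 167.8 to 178.7 by 98827_i_at (-0.19 ± 0.15). Kif5b (160417_at) gave 1176.7, 910.8, 1081.2, 671.5 and 685.5 in C57 and 722.7, 610.2, 516.5 and 1048.0 in DBA (-0.34 ± 0.24, adjusted p = 0.670). The highest animals were once more C57 animals 1 and 3 and DBA animal 4, and the strains overlapped.

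Variation between animals of a strain followed the trio in several members, as it did in sets over the whole array. These arrays had been picked from the first component over all tested sets and had the highest medians. The trio of C57 animals 1 and 3 and DBA animal 4 was highest in both strains in 8 of 56 member sets (14.3%, against 14.7% of all tested sets), namely in sets of Arpc5, Cfl2, Kif5b, Map4, Msn, Myl4, Rdx and Stmn2. It was lowest in both strains in 8 others (14.3%, against 8.78%), in sets of Actg1, Capzb, Dstn, Ina, Stmn1, Tmsb10 and Tuba1a, the last with 2 sets. Arpc5 lay 0.90 higher in the trio on the log2 scale than in the other animals, Msn 0.70 and Kif5b 0.65. With the trio as a term limma called 2 of 56 member sets (3.01% of all sets), and with only the other 6 animals also 2 (1.60% of all sets). They were Cap1 and Myl4 160487_at both times. The median log2 SD within strains was 0.178 over the member sets (0.066 to 1.43) and 0.244 over all tested sets, and 35 of the 56 member sets belonged to the brightest 25% of tested sets. Within that share of the array the medians were 0.13 and 0.163.

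**Figure D4:**
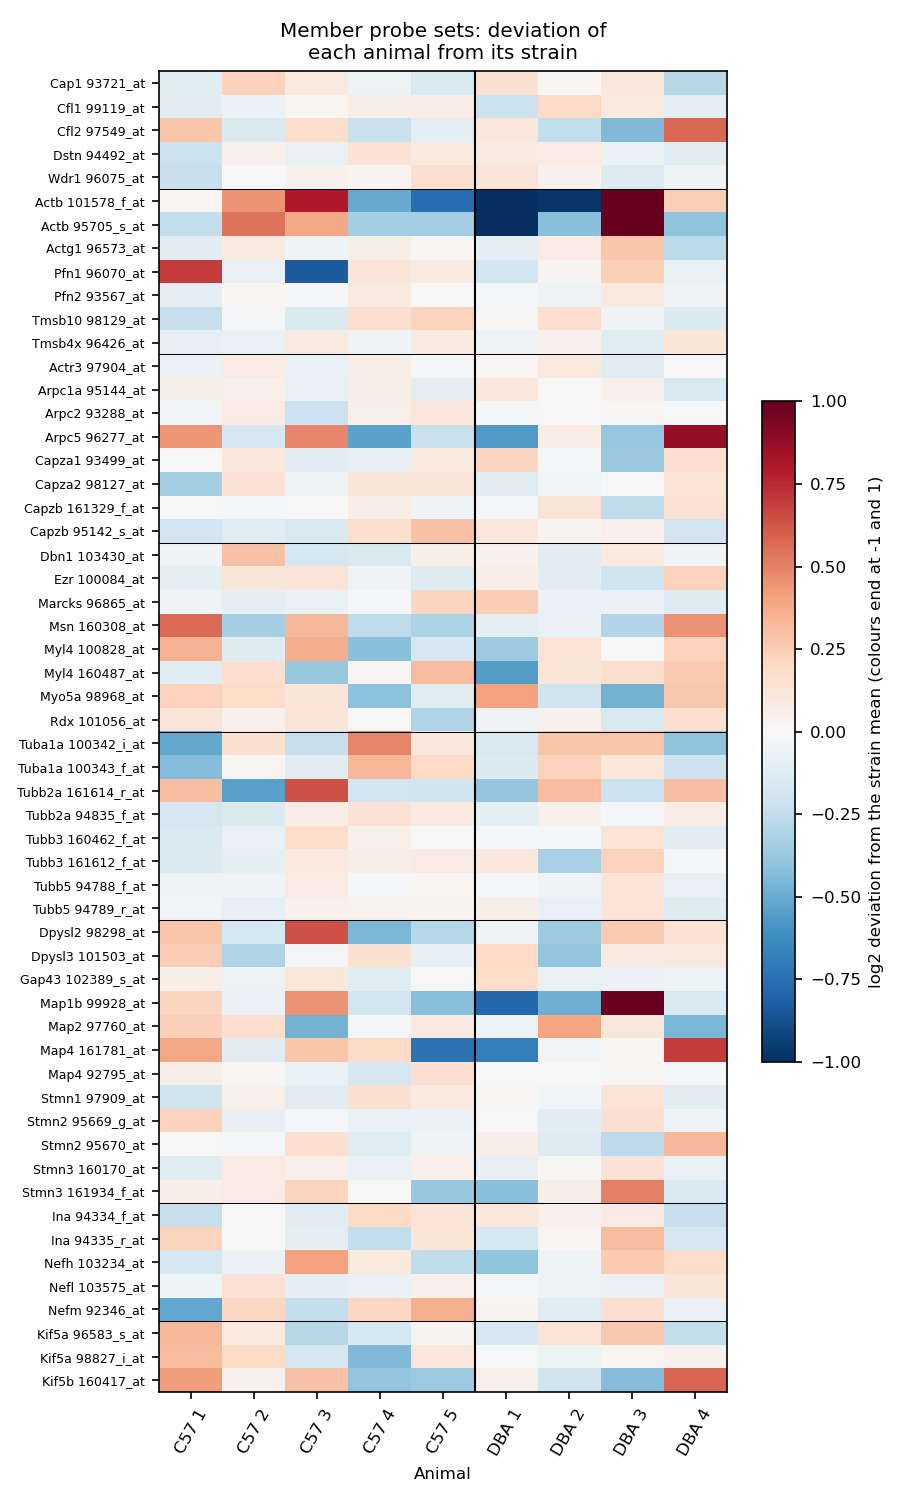
Deviation of each animal (x axis) from its strain mean, as a log2 value in colour, for the 56 tested member probe sets (y axis, grouped by role; the vertical line divides the strains). C57 animals 1 and 3 and DBA animal 4 share a colour in sets such as Arpc5, Msn and Kif5b, and DBA animal 3 stands alone in the 2 Actb sets and Map1b.

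More than 1 tested set was available for 12 members, and in 6 of them (Capzb, Ina, Map4, Stmn2, Tubb2a and Tubb5) the sets had opposite signs. The share of such genes over the whole array was not counted. In Capzb, Ina, Map4, Tubb2a and Tubb5 at least 1 of the differences was smaller than its SE, so its sign is uncertain. In none of these 6 was a set called by limma, and 2 of them, Capzb and Tubb5, had 1 set with an unadjusted p under 0.05. Among the other 6, Myl4 had sets at -1.58 and -0.21.

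Other cytoskeletal genes outside the 50 were taken from a wider list of 101, of which 78 genes with 109 sets were tested. Limma called 4 sets of 4 genes (3.67%, against 2.50% of all sets), and nothing is read from this share about the list as a group. All 4 were lower in DBA, a direction called in 1.61% of all sets and in 150 of the 233 sets called over the whole array. The 4 genes are concerned with microtubules and transport. Kif3b (161003_at), a motor subunit of kinesin 2, gave 402.1, 379.9, 367.9, 372.5 and 334.3 in C57 and 199.8, 167.7, 199.2 and 192.1 in DBA (-0.97 ± 0.10, adjusted p = 0.000539). The strains did not overlap, and its call held under every alternative tried. Mapt (102431_at), which encodes tau, gave 4922.7, 4112.1, 4573.7, 4064.6 and 3974.7 in C57 and 3084.5, 2546.5, 2360.0 and 2951.1 in DBA (-0.67 ± 0.12, adjusted p = 0.0138), again without overlap. Its other sets were at -0.43 ± 0.13 (102742_g_at, adjusted p = 0.158) and -0.31 ± 0.14 (102743_at, adjusted p = 0.387). Klc1, a light chain of kinesin 1, was called by 97985_f_at, with 1140.0, 1207.5, 1163.6, 1207.5 and 1131.6 in C57 and 803.8, 935.0, 791.1 and 726.9 in DBA (-0.53 ± 0.10, adjusted p = 0.0193). The strains did not overlap there, while its sets 93565_at and 97984_i_at stood at -0.04 ± 0.10 and -0.14 ± 0.12. As with the tubulins, the suffixes _f and _i leave 97985_f_at and 97984_i_at uncertain as to gene. Dctn3 (94522_at), a subunit of the dynein activator dynactin, gave 2903.8, 3004.8, 2958.9, 3473.5 and 3375.2 in C57 and 2284.4, 2235.4, 2432.1 and 2100.4 in DBA (-0.47 ± 0.10, adjusted p = 0.0387), also without overlap. The call of Dctn3 was the least secure of the 4: it was lost whenever any 1 of the 9 animals was left out, and under 13 of 20 alternatives in all. That of Klc1 was lost under 9 of 20, and that of Mapt under 3 of 20. Limma called 0 of 58 sets of 39 further actin regulators, of which 4 had an unadjusted p under 0.05. It called 0 of 8 sets of other intermediate filaments, of which 0 had such a p, beside 12.2% of all sets. The smallest p among the actin regulators belonged to Myo6 96560_at, a myosin that moves toward the minus end of actin filaments. It gave 1058.5, 992.2, 1049.9, 1049.0 and 1049.4 in C57 and 916.2, 542.7, 636.7 and 494.5 in DBA (-0.72 ± 0.17, adjusted p = 0.0580). DBA animal 1 was nearest to C57, and without it, and under 3 other alternatives, the set was called. The other Myo6 sets, 162245_f_at and 92382_at, overlapped between the strains, at -0.13 ± 0.14 (adjusted p = 0.813) and -0.12 ± 0.15 (adjusted p = 0.831).

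The genes next to the called members were read from the order of RefSeq genes in GRCm38.p6. Around Cap1 the 5 nearest tested genes on either side (Scmh1, Ctps, Nfyc, Smap2 and Col9a2, and Mycl, Ppie, Hpcal4, Pabpc4 and Macf1) had 11 sets with differences of -0.275 to 0.400, and limma called 0 of them. Col9a2, the nearest on one side, was at 0.40 ± 0.15 and alone had an unadjusted p under 0.05. Around Myl4 the 10 genes had 15 sets with differences of -0.742 to 0.265, and 1 was called. It was Mapt 102431_at, so that the nearest tested gene to Myl4 on one side was also lower in DBA. On the other side the nearest tested gene, Tlk2, was at -0.08 ± 0.17.

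**Figure D5:**
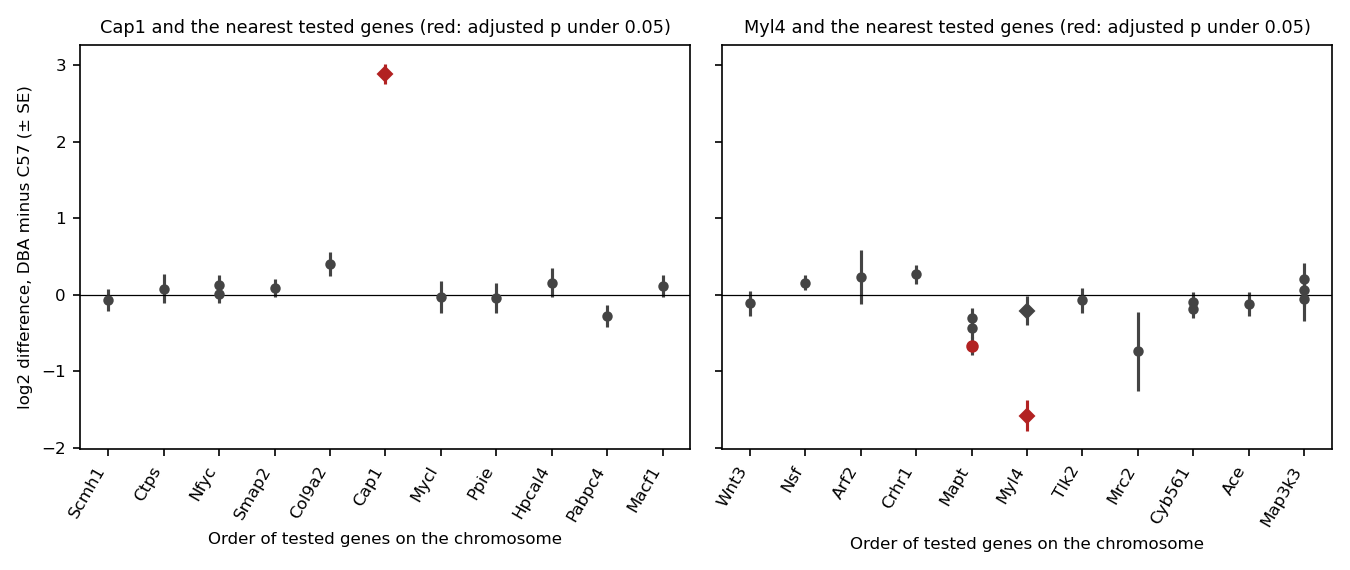
Log2 difference between the strains (DBA minus C57, points with SE) for Cap1 and Myl4 (diamonds) and the 5 nearest tested genes on each side (circles), in chromosome order with even spacing; red marks an adjusted p under 0.05. Cap1 stands at 2.89 among neighbours between -0.275 and 0.400, and Mapt is the called neighbour of Myl4.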

How the data were processed

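RNA of 9 whole brains (5 C57, 4 DBA) was read on 1 array each. The deposited values are intensities on a linear scale. How the authors summarised probes, and with which software, is not given in the sources used here, but in the deposited intensities the mean without the top and bottom 2% was 500.3 on every array, so each had been scaled to 1 target. No detection call, background value or probe sequence was used here.

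Of 12488 probe sets, 10855 had 1 annotated symbol, 396 several and 1237 none, and 10839 symbols were updated by gene identifier with the RefSeq table of GRCm38.p6. Control sets (66) were left out of the fit. Intensities under 1.7, the 1st percentile, were raised to it (0.977% of values), log2 was taken, and the dimmest 25% of sets by mean log2 intensity (a geometric mean under 35.4) were removed. Strains were compared in R 4.3.3 with limma 3.58.1 (lmFit, then eBayes; no covariates, 2-sided), with Benjamini-Hochberg adjustment over 9316 sets and a threshold of 0.05. Single values were tested by exact permutation in Python 3.11.15 with scipy 1.17.1, and figures were drawn with matplotlib 3.10.9. Folds are ratios of geometric means, and where a sentence gives a pair of ranges C57 comes first.

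The fit was tested on simulated data with 200 changed sets among 9316 and recovered 71% of those at a log2 size of 1 and 92% at 2. The simulated noise was drawn for each set alone, without the components that the real arrays share, so recovery in the real data may differ. The members, lists and naming rule were chosen with earlier results of these data known, so Cap1 in particular is a description. Values of every animal are given for members with a called set, for the smallest p and each unadjusted p under 0.05 in a role group, for Cap1 and Myo5a, for wider-list genes and neighbours past the threshold, and for members whose sets have opposite signs where 1 has an unadjusted p under 0.05. Other members are given by range, and values of single animals outside this rule were chosen after they were seen. Alternatives were other scaling, floors, filters on dim sets, variance model, the animal number as a block, 1 set per gene, leaving out each animal, and, chosen after seeing the data, the 3 arrays that stand apart as a term or left out.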

Additional observations from a re-analysis of the deposited data

Results flagged for a closer look

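Each strain's animals were examined in the 56 tested and 6 control member sets for 1 animal far from the rest, as a gap to its nearest neighbour that, on the log2 scale, takes up more of the strain's range than Dixon's critical value at 95%. Of 124 groups examined 7 met this, and chance gives about 1 in 20. In DBA, Gap43 102389_s_at was high in animal 1, at 4745.0 against 3979.0 to 4024.5 in the others (gap share 0.935), and Myl4 160487_at was low in animal 1, at 73.3 against 117.9 to 129.5 (0.835). In C57, Stmn2 95669_g_at was high in animal 1, at 7512.2 against 6072.9 to 6333.0 (0.803), and Marcks was high in animal 5, at 2653.1 against 2144.9 to 2274.9 (0.723). Rdx was low in the same C57 animal 5, at 679.0 against 844.4 to 922.5 (0.711). The antisense control set at the 3′ end of Actb was high in animal 3 of both strains, at 173.4 against 110.7 to 114.8 in C57 (0.919) and at 274.9 against 101.9 to 110.5 in DBA (0.918). On the linear scale, tried after seeing the data, 10 groups met it, 5 of these 7 among them. Myl4 160487_at and Rdx did not (0.794 and 0.679), and DBA animal 3 was added in 2 tested and 2 antisense sets of Actb and in Map1b (0.850 to 0.912).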

How the results depend on the processing

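Cap1 kept its call and direction under every alternative, from 2.74 with log2(intensity + 16) to 2.98 without single animals. The member sets and member genes called stayed at 2 each, and were the same sets, under all alternatives but the brightest probe set per gene, which left 1 of each. With single animals left out both counts were 2 throughout. The count over all sets was 233, and 184 to 228 without single animals. It fell to 149 in the 6 animals outside the trio, a setting with fewer samples. With all animals kept it ran from 73 with the animal number as a block to 297 with a mean-variance trend, and was 280 with the trio as a term. The 4 wider-list genes became 2 with arrays centred on their median, 7 with log2(intensity + 16), 1 in the 6 animals, and 2 to 4 without single animals. They were 6 with a stricter filter on dim sets and with a mean-variance trend, and 5 with the trio as a term. With the brightest probe set per gene they were 3. At 2 they were Kif3b and Mapt, except without DBA animal 2, where they were Kif3b and Klc1. Sets called only under alternatives were Kif1a 92890_at (5 of 20), Myo6 96560_at (4 of 20) and Mapre1 99367_at (2 of 20). The cause of these changes was not tested.

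Same-numbered animals of the strains did not deviate together (correlations of -0.102, -0.0165, -0.007 and -0.167). Whether animals of the same number were handled together cannot be told from these values. With the number as a replicate block, 73 sets were called over the whole array, 2 member sets, and 1 wider-list gene, with Cap1 at 2.85 (adjusted p = 0.00303). C57 animal 5 has no DBA animal of its number and so adds nothing to the difference in that fit. The block also leaves fewer degrees of freedom, and what lowered the count was not tested.

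The value of Capzb 95142_s_at, 0.03 in the fit, turned to -0.0165 without C57 animal 1, -0.00728 without C57 animal 3, -0.00511 without DBA animal 1, -0.00979 with the trio as a term and -0.021 in the 6 animals, and ran up to 0.105. Pearson's r of Nefm with Nefh turned to 0.166 with arrays centred on their median, and ran from -0.519 to 0.136 without single animals, being 0.105 without C57 animal 5.

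Array signal sets the limits: 5 member sets were too dim to test, and 14.7% of all sets followed the trio upwards. Tubulin sets can read more than 1 gene, and other sets with the suffix _f, _i or _r are likewise uncertain as to gene. What sets with the suffix _s read was not tested. Strain and sex cannot be told apart.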

Other observations

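The 5 member sets too dim to test belong to no comparison above. Stmn1 97910_at had a mean of 7.88 in C57 and 12.3 in DBA, and Stmn2 95668_at of 38.6 and 23.5. Capzb 95141_at ran from 9.2 to 53.0 in C57 and from 26.6 to 79.7 in DBA. As means, Cfl2 162088_r_at read 20.6 and 16.2, and Myo5a 100672_at 3.30 and 1.43. The strains overlapped in each, and each had a mean log2 intensity under the limit.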
